A study of Mus musculus with 6 samples.

Results

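The comparison described here sets LSK cells labelled Setd2 KO against LSK cells labelled WT, both taken from C57BL/6 mice 8 months after injection of pI-pC. It covers 13657 of the 14468 gene identifiers listed in the 4 RNA-seq libraries of the series. They are the genes listed in at least 1 of the 2 old libraries, with antibody gene segments left out by name. The name rule removed 233 genes listed in an old library, among them Ighmbp2, which encodes a helicase and is not a segment (3.64 in WT and 3.21 in KO).

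LSK cells are bone marrow cells without lineage antigens that carry Sca-1 and Kit, the fraction that holds stem cells and multipotent progenitors. pI-pC is a double-stranded RNA that induces interferon, used to induce the deletion, and the labels count the time from it for both genotypes. The sources used here do not name the promoter that drives the recombinase, the deleted exons, or the sex and number of mice behind each library. Each library was made from 100 ng of total RNA. The other 2 RNA libraries, WT and KO at 4 weeks, are called young below and serve only to show which old library departs from the rest. The 2 bisulfite samples of the young mice were not analysed here. Every group is 1 library, so all differences describe these libraries, there is no replicate error, and no test was made.

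The SETD2 protein trimethylates lysine 36 of histone H3 along the bodies of genes as RNA polymerase II transcribes them. Hematopoiesis runs from stem cells to progenitors that are primed for myeloid, erythroid or lymphoid fates. During neutrophil development granule proteins are made in order: primary granule proteins in promyelocytes, secondary granule proteins in myelocytes, and tertiary granule proteins in the cells that follow. Plasma cells are the antibody-secreting end of the B lineage, and they carry an enlarged endoplasmic reticulum.

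Expression is given as scaled FPKM, FPKM (fragments per kilobase of transcript, relative to depth) after division by 1 factor for each library. Factors were 0.982 for old WT and 0.979 for old KO. A difference is KO minus WT in log2(scaled FPKM + 1), which understates the change of low genes. The deposited lists start at an FPKM of 0.5, so a gene below that is called not listed, was set at that limit for the difference, and any ratio against it is a lower bound. Where 4 values follow each other, the order is WT then KO of the young pair, then WT then KO of the old pair. A gene counted as measured when it reached 1 in an old library, and a difference of at least 1 in either direction is called 2-fold. FPKM times locus length lay within 0.02 steps of a whole multiple for 75.2% of 500 values in WT and 75.4% of 521 in KO, over loci under 1500 bases, with steps of 0.0560 and 0.0554. On that scale an FPKM of 5 in a 2 kb transcript came to 179 counted units in WT and 181 in KO, a counting error of 7.48% and 7.44%. At an FPKM of 1 the errors were 16.7% and 16.6%.

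Setd2 itself (chr9:110532597-110618633, GRCm38) was at 14.1, 12.4, 15.3 and 15.5. The value sums over the whole gene and the deleted exons are not known here, so it does not check the genotype labels, and WT and KO below are those labels. Kit was at 44.5 in WT and 41.1 in KO. Ly6a, the Sca-1 gene, was lower by less than 2-fold (-0.92), at 8.80 and 4.18. It was at 4.86 and 3.17 in the young libraries, so old WT was the highest library and old KO lay within the young values. Cd34 and Flt3, surface genes of multipotent progenitors, were at 49.5 and 55.6 in WT and at 51.7 and 64.5 in KO. Of the lineage antigen genes, Cd4 and Cd8a were not listed in either library and Ly6g was at 1.55 in KO only. The 8 measured members were all above 0, with a median of 0.72, and 2 were 2-fold higher. They were Ly6c2, part of the Gr-1 antigen, at 9.62 and 34.5, and Cd8b1, listed in KO only, at 2.25. Itgam, the Mac-1 gene, was at 5.45 in WT and 10.9 in KO.

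Markers of cells that a lineage-negative gate should leave out stood at high levels in one or the other old library. The summed level of 8 neutrophil markers was 37.3 in WT and 285 in KO, against 3.93 and 3.51 in the young libraries, with Ly6g and Cxcr2 not listed in WT and all 8 listed in KO. For 5 monocyte markers, each 2-fold higher in KO, the sums were 69.6 and 320. The 7 plasma cell markers summed to 2150 in WT and 202 in KO, each 2-fold lower in KO, against 43.8 and 56.6 in the young libraries. Antibody segments made up 26.7% of all FPKM in old WT, 4.63% in old KO, and 0.618% and 0.863% in the young libraries. The part of these cells in any difference below was not tested, and in bulk RNA fewer cells of a type and less RNA per cell cannot be told apart.

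Other marker lists differed by less. The 6 stem cell markers summed to 27.2 in WT and 13.5 in KO, the 5 erythroid markers to 190 and 108, the 4 mast cell and basophil markers to 91.1 and 46.7, and the 2 eosinophil markers to 192 and 74.2. The 5 marrow macrophage markers gave 7.90 and 6.50, the 3 T and NK markers 5.76 and 5.73, and the 4 stromal and endothelial markers 10.5 and 14.1, with Cxcl12 and Lepr not listed in either. In the longer list of T and NK cell genes 15 of 19 were above 0 (median 0.38) and 2 were 2-fold higher, the chemokine gene Ccl5 and Cd8b1, a CD8 chain gene. The 4 B cell markers gave 24.1 and 6.23, with Ms4a1 not listed in either and Pax5 listed in KO only.

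Of 12262 measured genes, 200 (1.63%) were 2-fold higher and 148 (1.21%) were 2-fold lower in old KO. The median difference was 0.01, with 6282 genes above 0 and 5980 below. Without predicted genes, pseudogenes, small RNA, mitochondrial and T cell receptor genes the counts were 149 (1.43%) and 123 (1.18%) of 10384. In the young pair 86 (0.702%) were higher and 68 (0.555%) lower of 12255. With those classes aside, the genes farthest above the diagonal in the plot of old KO against old WT were Retnlg, Chil3 and Camp, of neutrophils, and those farthest below it Jchain, Mzb1 and Irf4, of plasma cells. Among the classes set aside, mt-Nd4l, a complex I gene of the mitochondrial genome that overlaps mt-Nd4, was at 126 and 62.2 in the 2 WT libraries and not listed in either KO library. Of the predicted genes Gm28048 was at 1.81 in young KO and 15.1 in old KO, Gm20716 was at 8.83 and 12.5, and neither was listed in a WT library. Of 33 measured T cell receptor genes 6 were 2-fold higher and none lower, with a median of 0.61, among them the constant gene Trac, listed in old KO only, at 2.82.

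**Figure D1:**
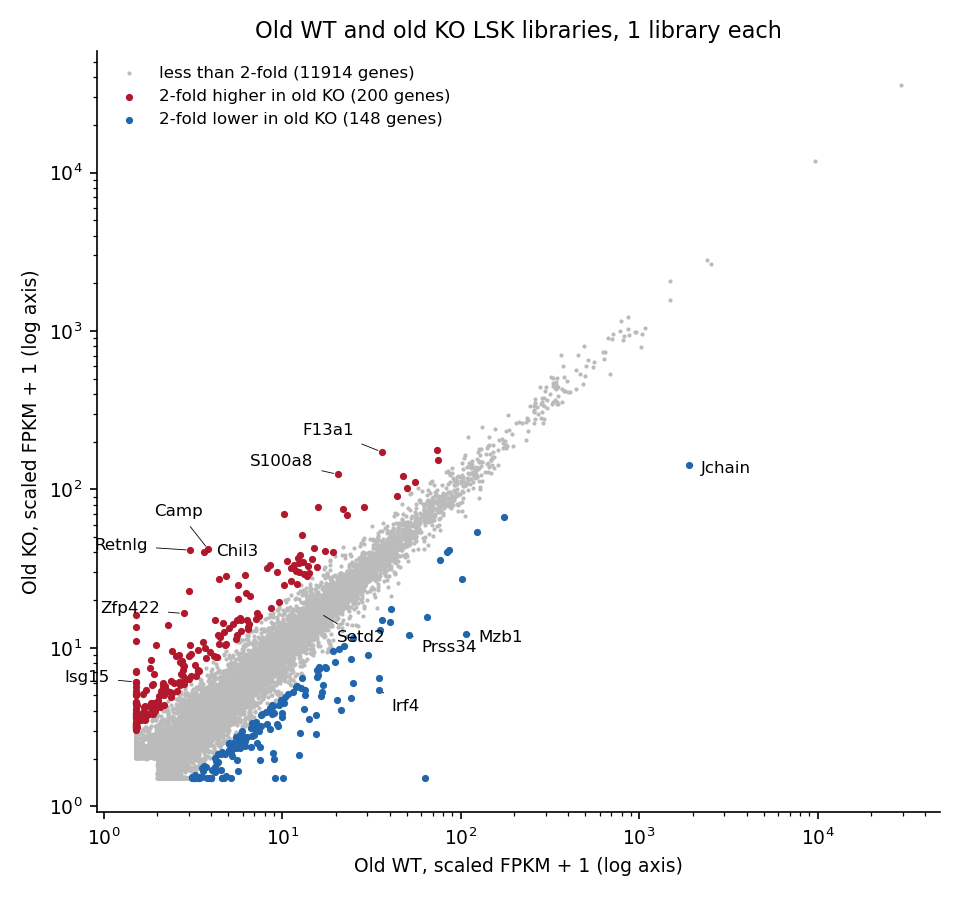
Scaled FPKM + 1 of each measured gene in old WT (horizontal, log axis) and old KO (vertical, log axis), with genes not listed drawn at the limit of 0.5 before scaling. Red marks 200 genes at least 2-fold higher and blue 148 at least 2-fold lower in KO; Retnlg, Camp and Chil3 lie far above the diagonal and Jchain and Mzb1 far below it.

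Granule genes of neutrophils differed by granule class, least for primary and most for secondary granules. The primary granule genes had a median difference of 0.43, with all 13 above 0 and none 2-fold higher. The neutrophil elastase gene Elane was at 491 in WT and 799 in KO, the myeloperoxidase gene Mpo at 373 and 603, and the proteinase 3 gene Prtn3 at 59.96 and 97.2. Each was 1.62 or 1.63 times higher in KO, and the young values of Elane were 371 and 299.5. The lowest member, Prss57, was at 5.27 in WT and 7.25 in KO, and all members were listed in both old libraries.

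Of the secondary granule list 7 of 11 genes (63.6%) were 2-fold higher, and the list had a median of 1.84. Camp, the gene of the antimicrobial peptide cathelicidin, was below the limit in both young libraries and reached 2.86 in old WT and 40.8 in old KO, 14.3 times higher. Ltf, which encodes lactoferrin, was at 1.28 and 12.9. Ngp, neutrophilic granule protein, was at 3.45 and 26.1. Neither was listed in a young library, so for these genes both old libraries were above both young ones and KO was the highest. Chil3, a chitinase-like protein gene, was at 1.28 and 3.64 in the young libraries and at 2.64 and 39.5 in the old. Lcn2, the gene of the iron-siderophore binding protein lipocalin 2, was at 0.843 and 7.35, and Cd177, a surface protein gene of neutrophils, at 0.923 and 5.88. The lysozyme gene Lyz2, which monocytes also use, was at 113, 84.1, 72.5 and 176 in the 4 libraries. The 4 members under 2-fold, Pglyrp1, Anxa1, Fcnb and Cybb, differed by 0.42 to 0.88.

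Among 25 tertiary granule and mature neutrophil genes 11 (44%) were 2-fold higher, 1 was lower, and the median was 0.87. Retnlg, a resistin-like gene of neutrophils, had the largest positive difference: it was not listed in young WT, and the next libraries had 1.85, 2.06 and 40.4, the last 19.6 times the old WT value. The calprotectin subunit genes S100a8 and S100a9 were at 19.5 and 9.24 in WT and at 123 and 68.7 in KO. Mmp8, neutrophil collagenase, was at 0.976 and 9.43, and Mmp9, a gelatinase, at 1.39 and 5.16. Il1b, the interleukin 1 beta gene, was listed in old KO only, at 2.12. Of the markers of mature neutrophils, Ly6g was listed in old KO only, at 1.55, while Cxcr2 was at 1.44 and 0.921 in the young pair, not listed in old WT, and at 1.75 in old KO. The exception in direction was Slpi, a protease inhibitor gene, at 63.6 in WT and 14.6 in KO, and at 2.91 and 2.39 in the young libraries. Slpi is also among the 2-fold lower genes of the plasma cell list below. In this list old KO was the highest of the 4 libraries in 23 of 25 genes, against 30.6% of the 10384 measured genes without the classes named above.

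**Figure D2:**
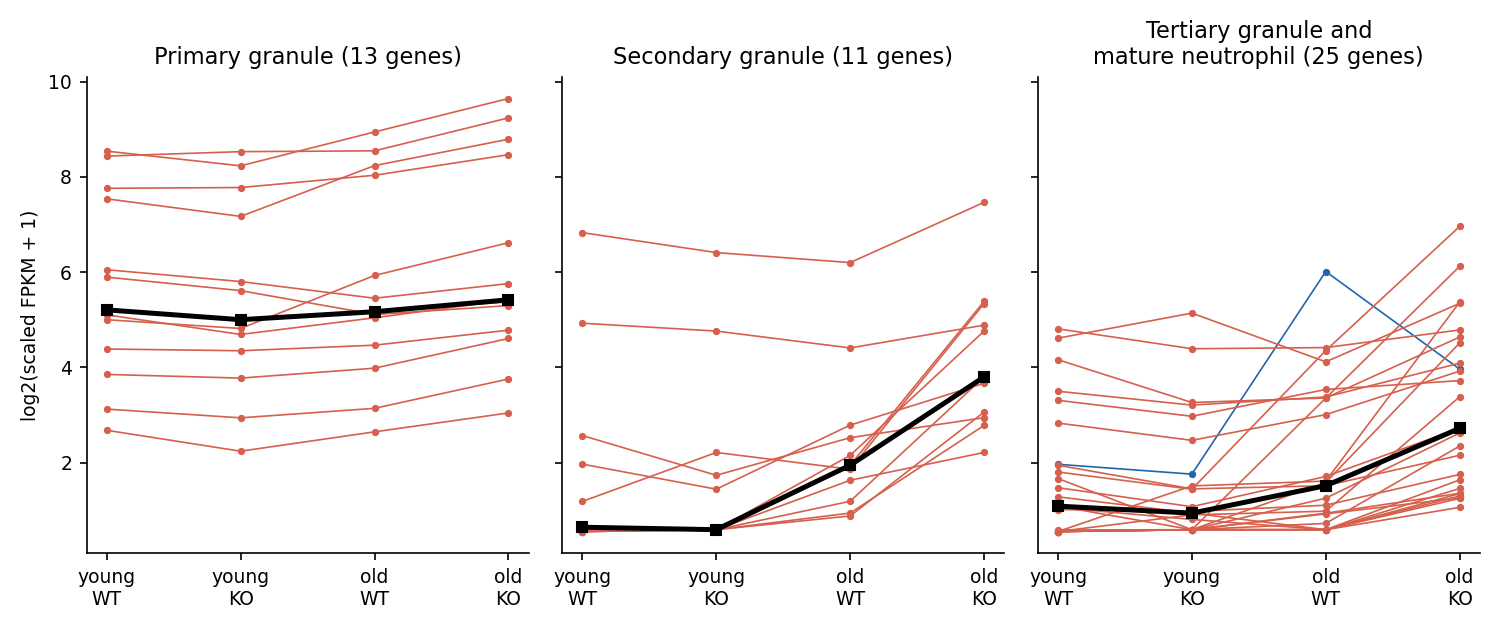
log2(scaled FPKM + 1) of each measured gene of 3 granule lists in the 4 libraries, 1 thin line a gene (Slpi in blue) and a black line for the median, with genes not listed drawn at the limit. Old KO is the highest library for 11 of 13 primary, 10 of 11 secondary and 23 of 25 tertiary genes. The lists differ in the size of the difference, and no primary granule gene is 2-fold higher in old KO.

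The 250 bases before the start site are shown for Ltf, Ngp and Lcn2, the 3 of the 7 2-fold higher members that hold the letters searched for. They are from RefSeq on GRCm38.p6, at chr9:111019042-111019291 (plus strand), chr9:110419558-110419807 (plus strand) and chr2:32387740-32387989 (minus strand). Capitals mark matches on either strand to TTGCNNAA, a pair of half-sites of C/EBP factors, which drive granulocyte genes. The match in Ltf begins 75 bases before the start site, that in Lcn2 216 bases before it, and Ngp has 2 matches, the first 138 bases before it.
Ltf: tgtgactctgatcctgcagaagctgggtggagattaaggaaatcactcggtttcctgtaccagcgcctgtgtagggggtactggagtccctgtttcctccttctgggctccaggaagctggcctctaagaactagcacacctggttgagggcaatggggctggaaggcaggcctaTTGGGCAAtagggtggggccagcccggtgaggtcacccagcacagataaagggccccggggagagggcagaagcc
Ngp: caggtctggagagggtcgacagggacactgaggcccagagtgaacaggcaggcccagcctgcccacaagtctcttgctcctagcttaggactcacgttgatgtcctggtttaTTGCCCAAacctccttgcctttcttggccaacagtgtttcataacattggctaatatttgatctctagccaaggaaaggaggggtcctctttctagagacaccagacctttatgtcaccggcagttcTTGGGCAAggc
Lcn2: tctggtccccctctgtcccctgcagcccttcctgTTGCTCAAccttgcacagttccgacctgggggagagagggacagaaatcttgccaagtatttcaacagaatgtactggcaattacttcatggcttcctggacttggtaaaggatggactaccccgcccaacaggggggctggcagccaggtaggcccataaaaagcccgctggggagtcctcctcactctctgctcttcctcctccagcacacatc

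In windows from 250 bases before to 50 after a start site, TTGCNNAA was found for 5 of 11 secondary granule genes (45.5%) and for 3 of the 7 that were 2-fold higher. It was found for 9.96% of 8474 measured genes with a window and for 12.2% of 27025 genes in the table. It was found for 16 of 107 2-fold higher genes (15.0%) and for 18 of 91 2-fold lower genes (19.8%), so it was as common among genes lower in KO. A match is a description of the letters and not of a bound site.

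Monocyte genes were higher as a group, with 13 of 23 (56.5%) 2-fold higher, none lower and a median of 1.36. F13a1, the gene of the coagulation factor XIII A subunit, was at 15.7, 21.2, 35.2 and 171. Ms4a6c, a membrane protein gene of monocytes, was at 14.9 in WT and 76.6 in KO. Csf1r, the receptor gene of the growth factor M-CSF, was at 8.31 and 29.1, against 8.91 and 4.92 in the young libraries. So for these genes old KO alone was high, though Ms4a6c, at 20.1 in both young libraries, was also lowest in old WT. Of the 13 2-fold higher genes old KO was the highest of the 4 libraries in 12 and old WT the lowest in 8. Ly86, whose product partners a Toll-like receptor homologue, was at 7.55 and 32.1, and Pld4, an endolysosomal nuclease gene, at 5.22 and 27.9. Cd68, of lysosomes, was at 4.88 and 14.1.

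For the chemokine receptor genes Ccr2 and Ccr1, which guide monocytes to inflamed sites, old KO was not the highest library. Ccr2 was at 9.88, 6.92, 1.64 and 8.03. Ccr1 was at 13, 10.9, 1.69 and 7.19. Old WT was the low library for both, and old KO lay within the young values for Ccr2 and under them for Ccr1. Csf2rb2, a beta subunit gene of the interleukin 3 receptor, behaved alike, at 9.94, 8.48, 1.73 and 5.84.

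Of 16 myeloid transcription factor genes 4 were 2-fold higher, with 0.59 as the list's median. Irf8, a factor needed for monocyte and dendritic cell fates, was at 12.7, 10.5, 11.7 and 37.5. Spi1, which encodes PU.1, was at 11.1 and 24.3 in the old pair. Cebpb was at 13.2 and 28.7, and Klf4, a factor of monocyte differentiation, at 12.7 and 27.2. Both were lower in the young libraries, Klf4 at 2.07 and 1.82. Cebpa, a factor of the step to granulocyte-monocyte progenitors, was at 11.6 and 21.7, a difference of 0.85. Cebpe, which drives secondary granule genes, was at 7.14 and 9.59, a difference of 0.38, much smaller than those of Camp, Ltf and Ngp. Gfi1, a repressor of monocyte genes in neutrophil precursors, was at 8.30 and 6.22.

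Receptors and secreted factors of innate immunity were mostly above 0. In the list of Fc receptors and C-type lectins 4 of 18 were 2-fold higher and 16 were above 0 (median 0.50). Clec7a, the dectin-1 gene, was at 2.04 in WT and 9.37 in KO. The signalling adaptor genes Fcer1g and Tyrobp were at 1.78 and 46.3 in WT and at 6.80 and 121 in KO. Of 23 chemokine and cytokine genes 6 were 2-fold higher and none lower. The T cell and monocyte attractant genes Ccl5 and Ccl4 were at 0.855 and 11.2 in WT and at 4.85 and 35.8 in KO. The tumor necrosis factor gene Tnf was at 2.38 and 6.27, and oncostatin M (Osm) at 2.61 and 9.84. Among 18 Toll-like receptor genes and adaptors 2 were higher and 1 lower: Ly86 and Cd14 (1.09 and 4.35) against Ly96, the MD-2 gene (2.27 and 0.571). Nlrp3, the inflammasome sensor gene, was at 0.941 and 3.28. None of 10 MHC class II pathway genes and none of 19 class I genes was 2-fold different.

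Interferon-induced genes were higher by smaller steps. Of 63 effector genes 12 (19%) were 2-fold higher, none was lower, 53 were above 0 and the median was 0.47. Isg15, a ubiquitin-like modifier gene, was at 0.519 and 1.19 in the young pair, not listed in old WT, and at 5.09 in old KO. Slfn2, a Schlafen gene of T cells and monocytes, was at 3.22 and 13.9 in the old pair. Oas2 and Oas3, whose enzymes make the 2-5A that activates RNase L, were at 1.15 and 2.72 in WT and at 4.77 and 7.65 in KO. Their young WT values were 2.88 and 4.64, so old WT lay below and old KO above the young libraries. Rtp4, a receptor transporter gene, was at 9.67, 4.95, 4.28 and 13. Over the 63 genes old KO was the highest library in 47, and old WT the lowest in 28, against 30.6% and 22.7% of all measured genes.

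The genes that carry the interferon signal differed less, while the sensor genes differed about as much as the effectors. Of 17 receptor, kinase and transcription factor genes none was 2-fold different and 16 were above 0, with a median of 0.23. Irf7, the factor that amplifies type I interferon, was at 1.3 and 2.79. Of 18 RNA and DNA sensor genes and their relatives 3 (16.7%) were 2-fold higher and 17 were above 0. Their median was 0.44, against 0.47 for the effectors. Ifi27l2a, an interferon-inducible gene, was at 4.68 and 23.9, and Mnda, of the interferon-inducible p200 family, at 0.734 and 2.69. Trim25, a ubiquitin ligase gene of the RIG-I pathway, was at 12.5, 31.0, 13 and 32.0, so KO was high at both ages. The interferon genes Ifna1 and Ifna2 were listed in old KO only, at 2.38 and 2.30. They belong to a family of near-identical intronless genes, so their assignment is uncertain. The monocyte marker sums given above (69.6 in WT and 320 in KO) moved with this list and their part in it was not tested.

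Windows are shown for 4 of the 6 effector genes that were 2-fold higher and hold a match, to let the positions be compared. They are the 250 bases before the start site in RefSeq on GRCm38.p6: Isg15 at chr4:156200819-156201068 (minus strand), Oas3 at chr5:120777660-120777909 (minus strand), Oas1g at chr5:120887614-120887863 (minus strand) and Slfn5 at chr11:82951852-82952101 (plus strand). Capitals mark matches on either strand to GAAA, any 2 bases and GAAA, the core of the interferon-stimulated response element through which type I interferon acts on its target genes. Isg15 has 3 matches that overlap, the first starting 78 bases before the start site. The match of Oas3 starts 75 bases before it, that of Slfn5 155 bases, and Oas1g has 2 overlapping matches from 18 bases before it.
Isg15: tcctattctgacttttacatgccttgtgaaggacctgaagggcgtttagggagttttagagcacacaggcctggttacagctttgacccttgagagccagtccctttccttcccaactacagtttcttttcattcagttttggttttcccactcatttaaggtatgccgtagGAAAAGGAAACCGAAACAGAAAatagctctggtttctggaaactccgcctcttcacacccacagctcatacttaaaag
Oas3: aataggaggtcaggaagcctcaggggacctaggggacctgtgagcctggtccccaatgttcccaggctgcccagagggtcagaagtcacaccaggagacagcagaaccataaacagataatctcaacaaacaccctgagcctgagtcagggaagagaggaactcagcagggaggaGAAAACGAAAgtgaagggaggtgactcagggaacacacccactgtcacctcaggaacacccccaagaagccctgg
Oas1g: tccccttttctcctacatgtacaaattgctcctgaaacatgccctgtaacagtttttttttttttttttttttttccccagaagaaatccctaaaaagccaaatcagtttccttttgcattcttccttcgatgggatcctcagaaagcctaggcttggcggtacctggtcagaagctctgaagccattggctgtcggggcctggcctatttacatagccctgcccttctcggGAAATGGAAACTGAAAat
Slfn5: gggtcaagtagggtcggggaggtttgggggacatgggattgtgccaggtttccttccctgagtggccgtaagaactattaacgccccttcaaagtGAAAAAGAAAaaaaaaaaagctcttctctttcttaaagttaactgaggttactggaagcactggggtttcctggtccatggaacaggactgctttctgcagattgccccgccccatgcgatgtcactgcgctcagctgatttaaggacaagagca

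This core was found in the windows of 25 of 49 effector genes that had one (51.0%), and of 6 of the 9 that were 2-fold higher. The share was 3.89% of 8474 measured genes and 3.99% of the 27025 genes in the table. It was 12 of 107 (11.2%) of 2-fold higher genes and 3 of 91 (3.30%) of 2-fold lower genes. Of those 12, 6 are the effector genes just counted, so the 2 shares are not separate observations. The effector list was chosen as interferon-induced genes, so its share does not bear on the difference between the libraries. In the old pair Oas1g was at 0.714 and 2.77, and Slfn5 at 1.42 and 4.17. The Oas genes lie close together and share sequence, so reads may be split between them.

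Most genes of acute stress stayed under 2-fold, but the share 2-fold higher was above the 1.43% of the 10384 measured genes. Of 40 immediate early and feedback genes 3 (7.5%) were 2-fold higher, 35 were above 0 and the list median was 0.29. Atf3, a stress-induced factor, was absent from the young lists, with 5.31 for old WT and 21.0 for old KO. Ppp1r15a, the GADD34 gene that reverses the block on translation, was at 12.1 and 33.9. In the heat shock list 2 of 16 (12.5%) were 2-fold higher, with a median of 0.27 in the old pair and of 0.27 in the young pair. They are the inducible HSP70 genes Hspa1a and Hspa1b, at 2.96 and 2.07 in WT and at 8.44 and 8.19 in KO; they are near-identical, and Hspa1b was at 5.51 in young KO. Pmaip1, the gene of the death-promoting protein NOXA, was at 0.742, 1.32, 4.67 and 19.3. It was the 1 member of 16 Bcl2 family genes past 2-fold. Both old libraries lay above both young ones for Atf3, Ppp1r15a and Pmaip1.

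The list with the most 2-fold lower genes was that of plasma cells. Of 37 identity genes 20 (54.1%) were 2-fold lower in KO and the median was -1.08. Jchain (chr5:88519809-88527891), which encodes the chain that joins IgA and IgM, was at 13, 19.7, 1891 and 141, in old KO 13.4 times lower than in old WT. Mzb1, an ER protein gene of antibody-secreting cells, was at 2.60, 4.98, 106 and 11.2. Irf4, a factor plasma cells need, was at 33.9 in WT and 4.41 in KO, and Prdm1, the Blimp-1 gene, at 7.84 and 1.18. Tnfrsf17, the gene of the survival receptor BCMA, was at 11.4 and 1.11. Sdc1, which encodes CD138, was at 14.5 and 2.75. Ccr10, a homing receptor gene of IgA plasma cells, was at 8.16 in old WT and not listed in the other 3 libraries. In 19 of the 20 lower genes old WT was the highest of the 4 libraries. The 1 member 2-fold higher in KO was Ly6c2, which monocytes also carry. The plasma cell markers given above include members of this list, such as Jchain, Mzb1 and Irf4, so their sum is not a separate observation. The antibody segments of old WT moved with this list. The part of plasma cells in it was not tested.

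Of 18 B cell identity genes 3 were 2-fold lower. Cd79a, a signalling chain of the B cell receptor, was at 23.4 and 3.84, Pou2af1, a coactivator gene of B and plasma cells, at 29.3 and 8.06, and Fcrla at 2.44 and not listed. Pax5, Ebf1 and Igll1, genes of B cell precursors, were below the limit in old WT and at 1.26, 1.25 and 1.62 in old KO.

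Of 45 ER folding and unfolded protein response genes 4 were 2-fold lower and 1, Ppp1r15a, was higher, with a median of -0.08. Derl3, which exports misfolded proteins from the ER, was not listed in young WT, and the next libraries had 2.03, 20.4 and 3.05. Xbp1, the factor that builds the secretory ER, was at 85.4 and 40.5. Herpud1, of ER-associated degradation, was at 76.0 and 35. Derl3, Xbp1 and Fkbp11 are also among the 2-fold lower plasma cell genes above, so they are not a separate observation. Chaperone genes lay on both sides of 0 by less than 2-fold: Hspa5, the BiP gene, was at 98.2 and 81.7 and Hsp90b1 at 127 and 103, while the calreticulin gene Calr was at 261 and 352. Of 23 translocation genes Spcs1, a signal peptidase subunit (8.61 and 3.35), and Tram2 (21.3 and 9.32) were 2-fold lower.

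Derl3 and Hspa5 are shown together because both hold the ER stress response element while their differences were -2.41 and -0.26. The windows are the 250 bases before the start site in RefSeq on GRCm38.p6, at chr10:75893148-75893397 (plus strand) and chr2:34771840-34772089 (plus strand). Capitals mark CCAAT, any 9 bases and CCACG, on either strand, which includes a CCAAT box. The match spans 156 to 138 bases before the start site in Derl3, on the opposite strand, and 65 to 47 bases in Hspa5.
Derl3: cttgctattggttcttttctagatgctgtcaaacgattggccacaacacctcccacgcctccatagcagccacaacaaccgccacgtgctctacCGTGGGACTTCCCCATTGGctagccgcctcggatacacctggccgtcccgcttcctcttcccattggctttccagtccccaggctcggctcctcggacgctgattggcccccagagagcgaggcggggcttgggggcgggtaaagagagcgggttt
Hspa5: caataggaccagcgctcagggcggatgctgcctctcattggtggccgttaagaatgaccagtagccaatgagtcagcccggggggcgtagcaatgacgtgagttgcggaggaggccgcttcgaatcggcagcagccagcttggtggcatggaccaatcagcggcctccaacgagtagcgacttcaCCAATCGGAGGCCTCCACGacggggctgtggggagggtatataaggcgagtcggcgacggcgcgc

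The element was found in 9 of 38 ER folding genes with a window (23.7%), in 0.165% of 8474 measured genes and in 0.137% of the 27025 genes in the table. Of the 4 ER folding genes that were 2-fold lower, Derl3 held it and Xbp1, Herpud1 and Fkbp11 did not hold these letters in this window.

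Early erythroid genes lay mostly below 0. Of 31 early erythroid genes 26 were below 0, 5 (16.1%) were 2-fold lower and the median was -0.58. Car1, carbonic anhydrase 1, was at 72.4, 146, 123 and 52.6. Epor, the erythropoietin receptor gene, was at 16.5 and 6.55, the water channel gene Aqp1 at 83.3 and 39.0, and the blood group gene Icam4 at 7.73 and 2.81. Old KO was the lowest of the 4 libraries in 17 of the 31, against 26.8% of all measured genes. Gata1, the master factor of the lineage, was at 15.4, 25.0, 17.3 and 8.50, a difference of -0.95. Of 16 erythroid factor genes and 9 heme synthesis genes none was 2-fold different. Of these, Nfe2, a factor of red cells and platelets, was above 0, at 5.99 and 10.9, as was Alas1, a heme synthesis enzyme gene, at 12.1 and 22.2.

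The 4 globin genes went the other way, 3 of them by 2-fold, with old WT the lowest library for each. Hbb-bs was at 46.8, 219.7, 12.2 and 28.1. Hbb-bt was at 52.2, 80.7, 5.51 and 13.1. Old KO thus lay below both young libraries for both genes. The paired alpha and beta globin genes are near copies, so reads may be split between them.

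Of 28 megakaryocyte genes 20 were below 0, with a median of -0.43. Vwf, the von Willebrand factor gene of platelet-primed stem cells, was at 5.08 and 2.35 in the old pair, and Itga2b at 15.4 and 9.31. Of 19 stem cell factor genes Hlf, a bZIP factor of stem cells, was 2-fold lower, at 14.7 and 6.20, and the median was -0.16. Mecom was at 2.5 and 1.80, Meis1 at 9.68 and 9.30, and Runx1 at 14.8 and 18.2. Of 8 Hoxa and Hoxb genes Hoxa6 was 2-fold lower, at 4.30 and 1.49.

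Among genes at 5 or more, the gene whose old KO value lay farthest below the other libraries was a basophil gene. This was Prss34, a basophil protease gene, at 279, 274, 50.2 and 11, so both old libraries were low. Prg2, the eosinophil major basic protein gene, was at 190.1, 118, 175 and 65.8. Of 24 genes in the list 2 were lower and 1, Ccl4, was higher.

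**Figure D3:**
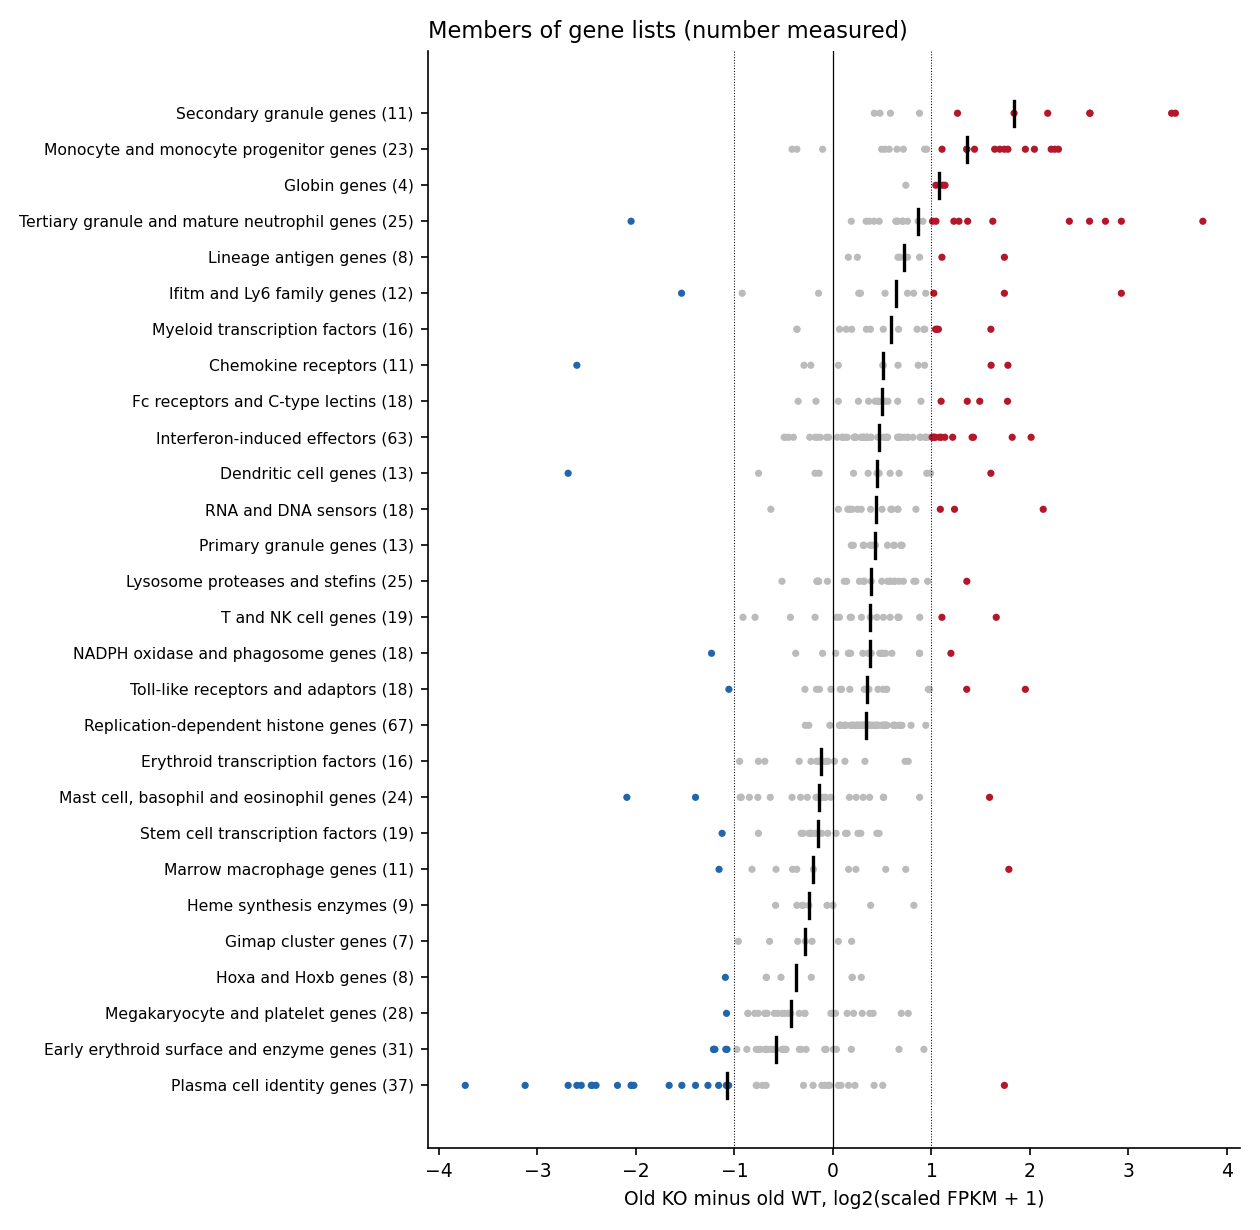
Old KO minus old WT in log2(scaled FPKM + 1) for each measured member of 28 gene lists, with the number measured after each name. They are the 18 highest and 10 lowest medians of the 62 lists, leaving out the sorting genes of the LSK gate (2 measured, median -0.52). Red and blue points are past 2-fold and black bars are medians; secondary granule genes have the highest median (1.84) and plasma cell genes the lowest (-1.08).

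Most cell cycle genes stayed under 2-fold. None of 40 mitosis genes (median 0.20, 37 above 0) and none of 67 replication-dependent histone genes (median 0.34, 64 above 0) was 2-fold different. Old KO was the highest library in 24 of the mitosis and 48 of the histone genes, against 30.6% of the 10384 measured genes. Of 40 S phase genes 28 were below 0 (median -0.07) and 1, Fen1, was 2-fold lower. Fen1, the flap nuclease gene of replication, was at 8.91, 7.69, 18.7 and 7.13, so old WT was the high one. Cdkn2c, a CDK inhibitor gene, was at 7.09, 4.19, 12.4 and 4.02, and also highest in old WT. Of 45 DNA repair genes Xrcc5, the Ku80 gene, was lower, at 15.0 and 6.62. Among 39 genes recurrently mutated in myeloid leukemia, Cbl, a ubiquitin ligase gene, was 2-fold lower, at 23.5, 23.4, 18.2 and 8.51. Suz12, a Polycomb subunit gene, was at 23.7 and 13 in the old pair, against 23.4 in both young libraries. The 13 H3K36 methylation enzyme genes lay between -0.19 and 0.16, and none of 27 housekeeping genes was 2-fold different (median 0.05).

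Which old library departed from the other 3 differed by direction. Of the 149 2-fold higher genes old KO was the highest of the 4 libraries in 128 (85.9%), in 70 of them by at least 1 log2 unit. Old WT was the lowest in 81 (54.4%), in 15 by at least 1. Of the 123 2-fold lower genes old KO was the lowest in 64 (52.0%), in 16 by at least 1, while old WT was the highest in 83 (67.5%), in 44 by at least 1. The distance of old KO was the larger for 113 of the higher genes and for 49 of the lower genes. Since the call requires the old libraries to differ, some excess over the shares of all measured genes follows from it.

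Some genes were at nearly the same level in 3 libraries and apart in 1. Zfp422, a zinc finger gene, was at 17.8, 17.4, 1.80 and 15.5. Fbxo30, an F-box gene, was at 4.91, 6.97, not listed, and 6.10, and Ywhag, a 14-3-3 gene, at 31.0, 29.3, 10.3 and 30.8. In these the 2-fold difference rests on old WT. On the KO side Rsl24d1, a ribosome biogenesis gene, was at 26.2, 27.9, 24.1 and 5.04. Scoc, an autophagy gene, was at 19.2, 17.3, 15.8 and 4.25, and Map3k7, the TAK1 kinase gene, at 11.4, 11.7, 11.7 and 4.54. Hnrnpa3, an RNA-binding protein gene, was low in both KO libraries, at 22, 1.89, 19.4 and 3.69.

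**Figure D4:**
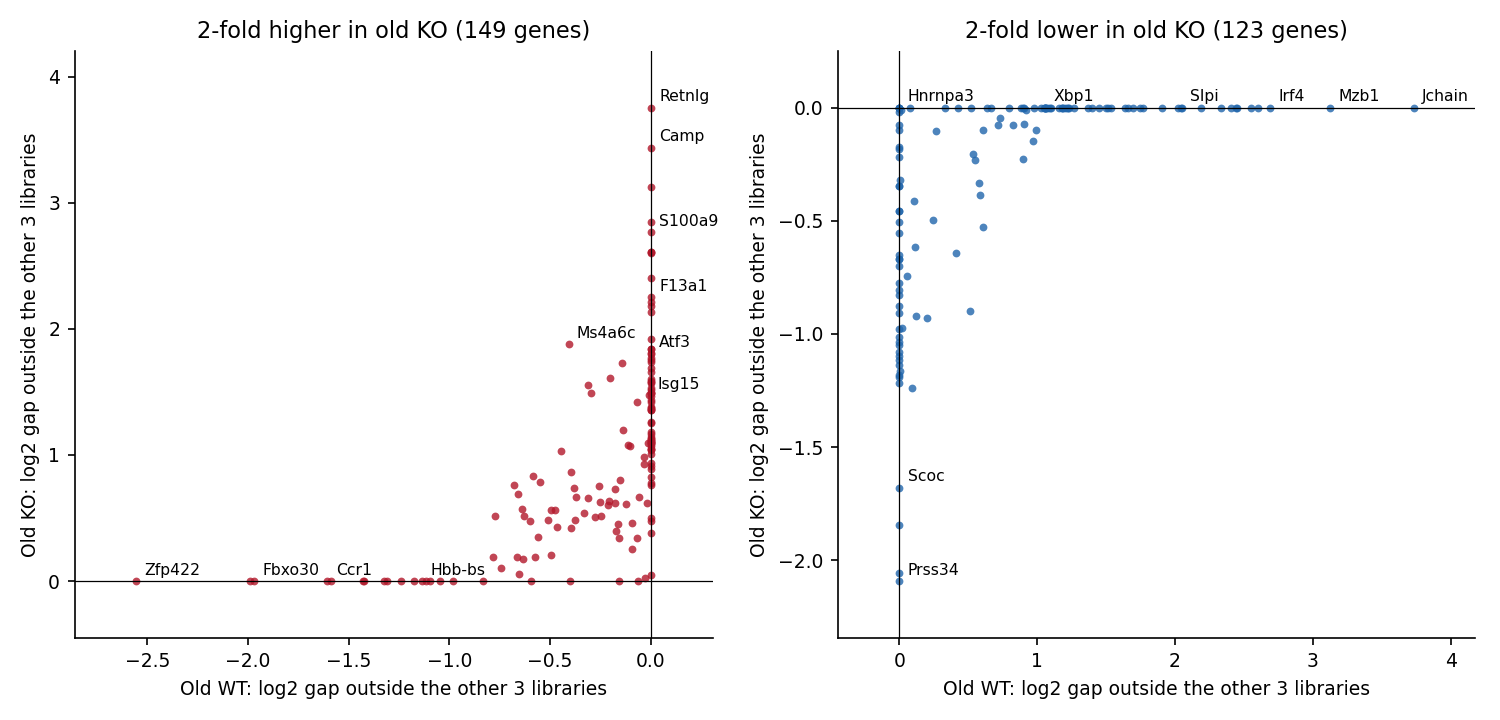
For each gene past 2-fold, the log2 distance of old WT (horizontal) and old KO (vertical) outside the range of the other 3 libraries, with 0 for a value inside that range. Of the 149 higher genes 128 lie above 0 on the vertical axis (Retnlg at 3.76), and of the 123 lower genes 83 lie right of 0 on the horizontal axis (Jchain at 3.73).

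Of the 272 called genes 41 fell into 18 runs, 13 higher and 5 lower. A run joined genes called in 1 direction with gaps under 100 kb, and genes not called could lie between them. How often measured genes in general lie so close was not counted. S100a6, S100a8 and S100a9 lie at chr3:90612882-90695721, and Ms4a4c, Ms4a6c and Ms4a6b at chr19:11404770-11531256. Oas2, Oas3 and Oas1g lie at chr5:120730333-120887613, and Ccl5, Ccl6 and Ccl4 at chr11:83525778-83664683. These are families of related genes side by side, and in the order given the spans hold 3, 4, 5 and 5 measured genes. Cd52, Sh3bgrl3 and Cep85, at chr4:134082448-134187112, are not of 1 family. Among all 348 called genes 81 share bases with another measured gene, with strand use in counting unknown here. For 9 of them a partner was 2-fold different in the same direction, for example Nedd4 and Gm36936, whose shared reads cannot be told apart; for none was a partner 2-fold different in the opposite direction.

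The difference ran with locus length, the span from a gene's start to its end. The 608 genes with loci up to 3 kb had a median of 0.16 and 65.8% were above 0. From 3 to 10 kb the median was 0.06, from 10 to 30 kb 0.02, from 30 to 100 kb -0.02 and from 100 to 200 kb -0.04. The 362 genes over 200 kb had a median of -0.07 and 40.6% above 0. Without histone and ribosomal protein genes the 509 genes left up to 3 kb had a median of 0.13. The share 2-fold higher went from 4.61% in the shortest to 0.552% in the longest loci, and the share 2-fold lower from 2.30% to 0.829%. In the young pair the medians were -0.01 for the shortest and -0.07 for the longest loci, so the short end was higher only in the old pair and the long end was below 0 in both. These shifts are far under 2-fold.

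**Figure D5:**
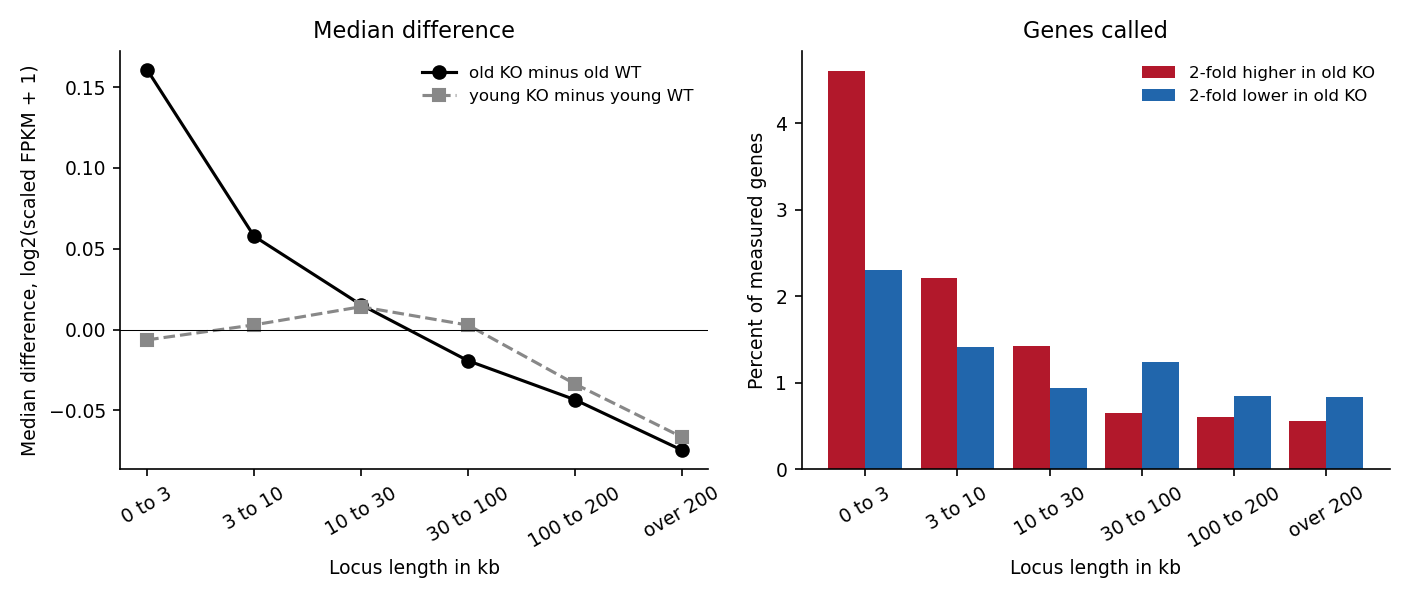
Left, the median difference in log2(scaled FPKM + 1) by locus length in kb for the old (black) and young (grey) pairs. Right, the percent of measured genes at least 2-fold higher (red) or lower (blue) in old KO; the old median goes from 0.16 at the shortest to -0.07 at the longest loci.

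At the 2-fold limit itself, Oasl1 (1.01) and S100a6 (1.01) lay just inside on the higher side and Tspan32os and Plbd1 (both 0.996) just outside. On the lower side Dcaf17 (-1.002) and Pdf (-1.01) lay inside, and Slc12a4 (-0.999) and Serpinf1 (-0.996) outside.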

How the data were processed

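RNA of 4 LSK libraries was analysed, 1 for each group, and groups were taken from the labels. FPKM values, 1 per gene, were deposited by the authors in lists that start at 0.5. The submitters' processing notes name HISAT2 2.0.4, StringTie 1.3.0, Trimmomatic, FastQC and CASAVA, and the build mm10, with no parameters. The sources used here give neither strand use nor total read counts. From these values the lists were joined by gene identifier (14382 of 14468 identifiers matched a table of names), and each library was divided by the median ratio to the geometric mean over 10939 genes. No count test was possible on FPKM, and with 1 library a group no p-value or SD is given. The differences were computed with Python 3.11.15, numpy 2.4.6, pandas 2.3.3 and matplotlib 3.10.9, and the steps were tested on simulated data.

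Members and 62 gene lists were chosen with earlier results of these data known. Genes were named by this rule: Setd2, sorting and lineage antigen genes; the 12 largest differences in each direction at 5 or more; the 12 genes of each direction in which an old library lies farthest outside the other 3; up to 6 members of each list with the largest difference, and all members of lists of 12 or fewer; and the genes next to the limit. Predicted genes and similar classes were kept out of the ranked parts. Other named genes (such as Hspa5, Hsp90b1, Ifna1, Ifna2, Lyz2, Mmp9, Il1b, Irf7, Oas1g, Slfn5, Cebpe, Gfi1, Suz12, Mecom, Meis1, Runx1, Cd52, Sh3bgrl3, Cep85, Prss57, mt-Nd4l, Gm28048, Gm20716, Trac, Gm36936 and Ighmbp2) were chosen after their values were seen. Alternatives changed the pseudocount, the minimum, the scaling and the value given to genes not listed. Promoter windows came from RefSeq and were held for 8474 of 12254 measured symbols. Some members of the lists are not reported here.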

Additional observations from a re-analysis of the deposited data

Results flagged for a closer look

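These 9 genes reached 5 in an old library and were past 2-fold in opposite directions in the old and young pairs, of 10045 genes measured at both ages. With 1 library a group the difference between the ages was not tested. Derl3, of ER-associated degradation, was lower by -2.41 in the old pair and higher by 1.04 in the young pair. The zinc finger gene Zfx stood at -1.57 and 1.68, and the histone variant gene H2afz at -1.26 and 2.18. Erythroid genes were among them: the pyruvate kinase gene Pklr (-1.25 and 1.19), Car1 (-1.21 and 1.001), the blood group gene Ermap (-1.09 and 1.10) and the amino acid transporter gene Slc38a5 (-1.18 and 1.03). Kpna1, a nuclear import gene, was at -1.10 and 1.26. In the other direction Ifitm6, an interferon-induced membrane protein gene of myeloid cells, was at 2.93 in the old pair and -1.07 in the young pair.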

How the results depend on the processing

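No paired analysis was possible because each group holds 1 library. The counts of 200 higher and 148 lower genes became 428 and 445 with a pseudocount of 0.1, 51 and 35 with a pseudocount of 5, 119 and 93 with a minimum of 5, and 328 and 286 with genes not listed set at 0. With no scaling, upper-quartile scaling, scaling over the old pair, every listed gene, or genes listed in both libraries, they stayed within 1.5 times. No list with a median of 0.2 or more in size changed sign under any of the 9 alternatives, and no named gene reversed. The size of list medians was less stable. Against a limit of 0.1, 29 of 62 were classed as moved under at least 1 alternative. These were 23 with a pseudocount of 5, 19 with a minimum of 5 and 15 with a pseudocount of 0.1, with some lists in more than 1 of these. Of 3188 values of 371 named genes 81 left the 2-fold class, 75 of them with a pseudocount of 5, and 79 entered it. The median of all genes was -0.02 with upper-quartile scaling, against 0.01 in the main comparison. A list at 0.5 FPKM leaves low genes, such as Isg15 in old WT, as bounds.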

Other observations

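Genes outside the lists described so far were also past 2-fold. Id1 and Id3, inhibitors of bHLH factors, were higher in old KO: Id1 at 3.35 and 11 in the old pair, and Id3 listed in old KO only, at 4.09. Apoe, the lipid carrier gene of macrophages, was at 5.16 and 2.96 in the young pair and at 1.56 and 7.83 in the old pair. Complement genes parted: C3 was at 6.14 and 14.3 in the old libraries and C1qa at 3.29 and 0.924. Scd1, a fatty acid desaturase gene, was at 4.25 and 1.09. These genes were chosen after their values were seen.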
